A study of Mus musculus with 4 samples.

Results

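Loss of Yap1 in SMO-M2-driven mouse tumours was examined by comparing 2 single-cell RNA libraries from female animals, those titled SGf and YSGf. Cells were taken as barcodes with at least 500 UMIs, at least 300 detected genes and at most 20% of UMIs in mitochondrial genes, which kept 7656 of 7726 barcodes in SGf and 7193 of 7289 in YSGf. These 14849 cells are part of 31150 kept in the 4 libraries of the series; the other two libraries, SGm and YSGm, hold the same genotypes in males. SGf came from fSMO-M2;hGFAPcre animals and YSGf from fYap1;fSMO-M2;hGFAPcre animals. The submitters' design text calls the latter rescued and places all groups at end point. Thus both libraries carry SMO-M2 and hGFAPcre, and only YSGf carries fYap1. Fresh tumour tissue, labelled MB, was dissociated and captured with the 10x Genomics 3' kit V3. No source used here gives the ages of the animals, the number behind each library or the zygosity of the alleles, and animals taken at end point need not share an age. Each genotype was 1 library, so no difference was tested, and genotype cannot be told apart from animal, litter or capture run.

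SMO-M2 is a constitutively active form of Smoothened, the signal transducer of the hedgehog pathway, which drives proliferation of cerebellar granule neuron progenitors. The human GFAP promoter directs Cre to radial glia and neural progenitors, from which granule neurons, other neurons and glia descend, so recombination is not limited to 1 cell type. YAP1 and its paralog TAZ, encoded by Wwtr1, are coactivators that are held in the cytoplasm by the Hippo kinases and that otherwise act on chromatin with the TEAD transcription factors. In the developing cerebellum YAP1 is expressed in granule neuron progenitors and in glia.

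The kept cells held 86810253 UMIs in SGf and 58308739 in YSGf, with medians of 7419.5 and 6667 UMIs per cell. Mitochondrial genes took 4.29% of UMIs in SGf and 4.39% in YSGf. The libraries shared 13 barcodes, against 9 to 21 for the other pairs of libraries. With the 4 libraries clustered together, the granule lineage held 7145 cells of SGf and 6692 of YSGf. Apart from cluster 7, left out for few UMIs, this lineage takes in every cluster that met the marker rule of no other class. Its marker Atoh1, the transcription factor of granule progenitors, was at 28.9 and 32.1 CPM in SGf and YSGf, where CPM is the UMI count scaled to a common total, counts per 1000000 UMIs of the library. The lineage includes cluster 2, left unnamed because the astroglial marker Gfap is among its 10 leading genes, beside Wnt4, Mndal, Tlx3 and Otx1. Most of its clusters were occupied almost wholly by 1 genotype. Clusters 0, 1 and 5 held most SGf cells, and clusters 2, 3, 4 and 9 most YSGf cells. Cluster 9 held 745 YSGf cells, 8 SGf cells and 8 cells of the m libraries together, so it may stand for that library and not for a cell type. Hoxb2 and Hoxb3 are among its 10 leading genes. At a finer resolution of 2, these genes also led a separate cluster of 171 SGf, 23 YSGf, 196 SGm and 11 YSGm cells. Only 5 granule-lineage clusters (6, 8, 10, 11 and 13) were filled by both f libraries, with 953 SGf and 1056 YSGf cells; they are called shared clusters below. Cluster 6 was led by early and heat shock genes such as Fos and Hspa1a, and cells of cluster 8 had few UMIs. Because genes that differ between the libraries define the clusters, the cluster sizes are not read as a change of cell types.

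Outside the granule lineage, astroglia-like cells numbered 149 in SGf and 44 in YSGf, which is 1.95% (exact 95% interval 1.65 to 2.28%) and 0.612% (0.445 to 0.820%) of the cells. The YSGf over SGf fold of this share was 0.314 (0.219 to 0.443), against 0.803 (0.638 to 1.01) in the m libraries. Under a stricter cell filter, of at least 1000 UMIs and 500 genes and at most 10% mitochondrial UMIs, the folds were 0.0898 (0.0377 to 0.184) and 0.300 (0.194 to 0.449). Oligodendrocyte-like cells were 57 and 44, with a fold of 0.822 (0.542 to 1.24). Microglia and macrophage-like cells were 9 and 44, with a fold of 5.20 (2.51 to 12.1), against 2.14 (1.09 to 4.39) in the m libraries. With the highest doublet scores left out, 9 and 26 such cells remained in the f libraries, with a fold of 3.08 (1.40 to 7.47), and the m fold was 1.53 (0.736 to 3.28). In that clustering 16 YSGf cells and 0 SGf cells formed a separate neutrophil-like class, so the class may hold neutrophils. All intervals in the text are 95% intervals that cover counting error only, treat each UMI or cell as independent, and say nothing of differences between animals.

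Yap1 itself (chr9:7931999-8004596 of mm10, minus strand) had 374 UMIs in SGf and 3 in YSGf, or 4.31 and 0.0515 CPM. Its level in YSGf was 83.7-fold lower (28.4 to 408). In SGf the Yap1 UMIs lay in 336 cells, 305 of them in the granule lineage, where its level was 4.09 CPM. Astroglia-like cells of SGf had 17 UMIs at 7.91 CPM, and the unnamed cluster 16, whose 30 SGf cells carried endothelial and fibroblast genes, had 12 UMIs at 51.1 CPM. In YSGf 1 granule-lineage cell of 6692 had a Yap1 UMI, and the other 2 UMIs lay in cluster 16, which had 7 YSGf cells. Smo was level, at 55.7 CPM in SGf and 52.8 in YSGf (fold 0.948, 0.905 to 0.992). Reads of this kit start near the end of a transcript and may miss the deleted exons, so the counts go with the genotype label without measuring the deletion.

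The 6 measured genes within 2 megabases of Yap1 had log2 ratios between -0.37 and 0.38, with Birc2 at 0.17 and Cep126 at 0.34. Log2 ratios throughout are YSGf over SGf after 1 CPM was added to both levels, which understates the ratio of scarce transcripts. A gene was counted as measured at 5 CPM or more in at least 1 of the libraries compared, and as called at a log2 ratio of 1 or more, or -1 or less.

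Across 10380 measured genes, 323 were past 2-fold higher in YSGf (3.11%) and 254 past 2-fold lower (2.45%), together 5.56%, with a median log2 ratio of 0.00. These sums over all cells do not tell fewer cells of a type from less RNA per cell. The shares of 3.11% higher and 2.45% lower are the background for each count of list members below that is taken over all f cells. In the granule lineage alone 3.17% were called higher and 2.32% lower (5.49% in all), and 315 of the 323 and 235 of the 254 genes were among them. That overlap was nearly fixed in advance. The lineage held 83150902 of the 86810253 UMIs of SGf and 56696495 of the 58308739 of YSGf. Past 4-fold were 32 higher and 49 lower genes, past 8-fold 5 and 12, and past 16-fold 2 each way. Called genes made up between 3.54% (chromosome X) and 8.22% (chromosome 8) of the measured genes of each autosome and of X. In the shared clusters, which hold little of each library, 2.29% of genes were called higher and 1.81% lower (4.1% in all). There 296 of the 299 higher genes that were measured had a log2 ratio above 0 and 209 of 212 lower genes had one below 0. Their medians were 1.02 and -1.13 there, against 1.30 and -1.38 over all cells. All measured genes there had a median of -0.01. The shared clusters are part of the cells from which these genes were picked, in the same libraries, so some agreement in direction was built in. Without cluster 9, 3.12% were called higher and 2.7% lower (5.82% in all), and 300 of the 323 higher and 245 of the 254 lower genes were still called. This overlap too was largely fixed in advance, as 86755243 UMIs of SGf and 50973280 of YSGf remained.

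**Figure D1:**
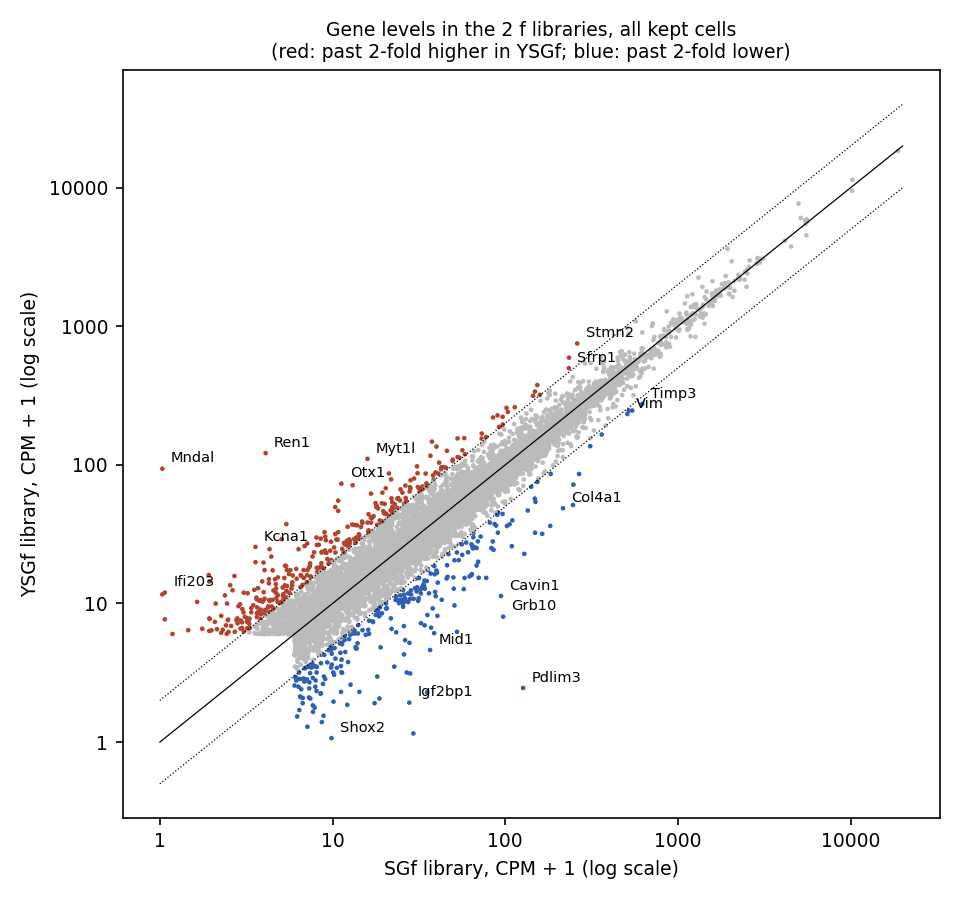
Level of each measured gene in the SGf library (x axis) and the YSGf library (y axis), as CPM + 1 on log scales, 1 point per gene, with the line of equal level and dotted lines at 2-fold. Mndal and Ren1 stand far above the line and Pdlim3 and Igf2bp1 far below it, while most genes lie within 2-fold.

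The partners of YAP1 were closer to equal between the libraries than Yap1 was. Wwtr1 was at 26.4 CPM in SGf and 9.24 CPM in YSGf, 2.86-fold lower (2.60 to 3.14), and at 19.3 and 6.80 CPM in SGm and YSGm. Tead1, the most abundant TEAD factor gene, was at 257 and 230 CPM in the f libraries. Tead2 was at 103 and 79.6 CPM, Tead3 at 3.48 and 3.53 CPM, and Tead4 at 0.438 and 0.669 CPM. Of 17 measured genes of the Hippo core and YAP partners, Wwtr1 was the 1 gene called, with no gene higher, and their median was -0.16. The angiomotin genes Amotl1 and Amot, whose products bind YAP1, had -0.79 and -0.64, and the kinase gene Lats2 had -0.60. In the shared clusters Amotl1 had 0.03 and Amot -0.76.

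Canonical targets of YAP and TAZ were lower more often than higher, but most stayed within 2-fold. Of 16 measured, 3 were called lower and 1 higher, beside 2.45% and 3.11% of all measured genes, and 13 of 16 were below 0, with a median of -0.39. Ccn1, a secreted matricellular protein and textbook YAP target, was at 7.91 CPM in SGf and 1.97 in YSGf (log2 ratio -1.58). Myof, a membrane repair protein, was at 12.6 and 3.84 CPM (-1.49), and Rbms3, an RNA-binding protein, at 12.4 and 5.37 CPM (-1.07). Foxf2, a forkhead factor gene, went the other way, from 3.70 to 12.8 CPM (1.55), and did so in the m libraries too (2.19). Ccn2, the best-known target, was scarce, with 62 UMIs in SGf and 2 in YSGf. Ankrd1, also a target, had 8 and 3.

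The promoters of 6 genes are given to show what the genes with the largest or most quoted changes carry at their start. Each runs from 250 bases before to 50 after the RefSeq start (GRCm38.p6), 5' to 3' on the strand of the gene. Capitals mark the TEAD motif CATTCC on either strand (GGAATG on the other) or, in Mndal, the AP-1-like pattern TGANTCA. In that pattern N is any base (T in the Mndal match), and the pattern reads the same on both strands. The marked stretches do not overlap.
Ccn1: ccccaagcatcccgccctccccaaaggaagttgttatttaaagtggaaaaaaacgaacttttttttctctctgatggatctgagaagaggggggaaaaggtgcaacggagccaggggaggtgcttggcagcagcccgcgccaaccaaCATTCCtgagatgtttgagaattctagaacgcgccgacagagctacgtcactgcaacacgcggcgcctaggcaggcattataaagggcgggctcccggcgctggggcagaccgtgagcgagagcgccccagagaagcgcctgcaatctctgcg
Pdlim3: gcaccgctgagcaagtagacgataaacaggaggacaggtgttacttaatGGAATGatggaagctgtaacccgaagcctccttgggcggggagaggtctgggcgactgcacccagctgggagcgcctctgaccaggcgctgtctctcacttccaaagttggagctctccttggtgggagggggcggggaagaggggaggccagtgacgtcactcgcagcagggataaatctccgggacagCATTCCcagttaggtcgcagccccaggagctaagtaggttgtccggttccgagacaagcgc
Cavin1: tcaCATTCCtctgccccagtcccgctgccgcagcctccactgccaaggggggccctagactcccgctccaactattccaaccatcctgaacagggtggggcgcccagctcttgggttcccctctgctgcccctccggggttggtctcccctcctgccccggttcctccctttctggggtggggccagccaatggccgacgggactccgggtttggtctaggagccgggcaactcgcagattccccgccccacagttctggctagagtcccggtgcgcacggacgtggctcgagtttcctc
Wwtr1: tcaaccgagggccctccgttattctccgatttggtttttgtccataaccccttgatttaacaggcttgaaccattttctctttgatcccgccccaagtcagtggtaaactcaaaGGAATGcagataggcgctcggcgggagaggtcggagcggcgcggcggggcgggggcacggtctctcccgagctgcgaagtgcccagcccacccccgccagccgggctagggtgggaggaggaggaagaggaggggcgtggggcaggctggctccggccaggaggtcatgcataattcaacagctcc
Mndal: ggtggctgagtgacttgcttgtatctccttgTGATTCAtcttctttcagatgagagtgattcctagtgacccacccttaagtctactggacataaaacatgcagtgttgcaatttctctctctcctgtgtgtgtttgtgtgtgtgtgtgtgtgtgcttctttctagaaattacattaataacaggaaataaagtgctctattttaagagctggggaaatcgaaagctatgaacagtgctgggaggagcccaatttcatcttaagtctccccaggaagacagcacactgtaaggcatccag
Ren1: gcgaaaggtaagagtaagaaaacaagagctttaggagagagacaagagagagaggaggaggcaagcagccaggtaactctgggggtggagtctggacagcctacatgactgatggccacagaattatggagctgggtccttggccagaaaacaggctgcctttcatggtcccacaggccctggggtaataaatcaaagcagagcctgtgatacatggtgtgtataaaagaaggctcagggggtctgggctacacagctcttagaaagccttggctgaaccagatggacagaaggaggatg

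These windows lie at chr3:145649936-145650235, minus strand (Ccn1), chr8:45885237-45885536, plus strand (Pdlim3), chr11:100970568-100970867, minus strand (Cavin1), chr3:57575861-57576160, minus strand (Wwtr1), chr1:173880138-173880437, minus strand (Mndal) and chr1:133350424-133350723, plus strand (Ren1). Pdlim3 held 2 TEAD matches, Ccn1, Cavin1 and Wwtr1 held 1 each, and Mndal and Ren1 none. Grb10, also lower in YSGf but not printed, held no TEAD match in any of its entries. Cavin1, Wwtr1 and Mndal had more than 1 entry, of which the first is printed. Such matches are common: the TEAD motif stood in 14.7% of all 32851 promoters and in 11.3% of those of measured genes. Among genes past 2-fold lower in YSGf it stood in 16.7% of 251 promoters, and among those past 2-fold higher in 12.7% of 300. The AP-1-like pattern, with any base at N, stood in 7.81% of all promoters and 4.44% of those of measured genes. It stood in 7.57% of those of lower genes and 5.33% of those of higher genes. A match describes letters and does not show a bound site.

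By the log2 ratio with 1 CPM added, the lowest gene in YSGf was Pdlim3, which encodes an actin-associated PDZ and LIM domain protein of muscle Z-discs. Pdlim3 had 10918 UMIs in SGf and 85 in YSGf (126 and 1.46 CPM), 86.3-fold lower (69.7 to 108). After each granule-lineage cell was thinned to 2000 UMIs, 16.9% of SGf cells and 0.418% of YSGf cells had a Pdlim3 UMI, against 44.9% and 1.09% without thinning. In oligodendrocyte and microglia-like cells, taken as a background of other types, the thinned shares were 1.79% and 0%; a count of 0 in 57 cells allows a share of up to 5.26%. Thinning left out 174 and 238 shallower lineage cells, and kept 56 of 66 and 57 of 88 background cells. Before thinning the median depths were 9023 and 4634.5 UMIs in the background cells and 7641 and 6918 in the lineage. Among 6 measured genes within 500 kilobases of Pdlim3, 1 was called higher (Sorbs2) and 1 lower (Helt), with a median of 0.16; these were chosen for their position after the values of Pdlim3 were seen.

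Other muscle and caveolar genes were lower with it. Of 27 measured genes of actin, caveolae and the muscle-type cytoskeleton, 11 were called lower and 0 higher, and 26 were below 0, with a median of -0.66. Des, which encodes desmin, an intermediate filament of muscle, was at 25.9 and 2.18 CPM (-3.08). Cavin1, a coat protein of caveolae, was at 93.4 and 10.3 CPM (-3.06), and Flnc, the muscle filamin, at 163 and 30.8 CPM (-2.36). Tpm2, a tropomyosin, was at 11.2 and 0.858 CPM (-2.71). Tagln, an actin-binding protein of smooth muscle, was at 13.3 and 1.30 CPM (-2.63), but in the shared clusters its log2 ratio was 0.15. Vcl, the focal adhesion protein vinculin, was the most abundant called gene of the list, at 360 and 165 CPM (-1.13). Tpm1 (0.17) was the only measured member above 0.

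Extracellular matrix genes formed the largest group of lower genes among the lists. Of 33 measured, 19 were called lower and 0 higher, with a median of -1.06, and -0.97 in the shared clusters. The fibrillar collagen gene Col5a2 was at 51.6 and 5.25 CPM (-3.07), and Col3a1 at 10.2 and 1.30 CPM (-2.28). Basement membrane collagen Col4a1 was at 215 and 47.6 CPM (-2.15), and laminin Lama2 at 7.67 and 0.394 CPM (-2.64). Loxl1, which crosslinks elastin, was at 76.6 and 14.3 CPM (-2.34), and the collagen-binding protein gene Sparc at 56.5 and 11.7 CPM (-2.18). Timp3, an inhibitor of matrix proteases, was the most abundant called gene that was lower in YSGf, at 620 and 274 CPM (-1.17). Ncan (0.51), Tnr (0.68) and Timp2 (0.88) were higher without being called. The unnamed cluster 16, with endothelial and fibroblast genes, held 30 SGf and 7 YSGf cells. Col3a1 in the granule lineage alone was at 9.18 and 1.34 CPM. In that lineage, which leaves out cluster 16, 17 of 31 measured matrix genes were called lower and 0 higher, with a median of -1.07. Of all measured genes there, 2.32% were called lower and 3.17% higher. The part of cluster 16 in the matrix gene differences was not tested. Of 8 measured integrins, which bind matrix, Itgb8 was called lower (55.0 and 25.7 CPM, -1.07) and the median was -0.32.

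Genes of fetal growth control were also among the lowest. Of 6 measured oncofetal genes, 4 were called lower and 0 higher, with a median of -1.60. Igf2bp1, an RNA-binding protein of fetal tissue, had 2328 and 54 UMIs (26.8 and 0.926 CPM, -3.85), and Hmga2, a chromatin architectural protein, 2356 and 124 UMIs (27.1 and 2.13 CPM, -3.17). The growth factor gene Igf2 was at 41.9 and 9.64 CPM (-2.01), and Hmga1 at 16 and 6.45 CPM (-1.19). In the m libraries Igf2 had -4.60 and Hmga1 -0.08. Grb10, an imprinted adaptor that restrains insulin and IGF receptor signalling, was at 96.3 and 7.03 CPM, 13.7-fold lower (12.4 to 15.2). Of 23 measured imprinted genes, 4 were called lower and 1 higher, Igf2r, which clears IGF2 and went from 8.70 to 23 CPM (1.31). Other members stayed close to equal, as did Gnas (-0.03), Kcnq1ot1 (0.06) and Meg3 (0.01), and the list's median was -0.15.

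IGF and FGF signalling genes moved both ways. Of 20 measured, 5 were called lower and 3 higher, with a median of -0.25. Besides Grb10 and Igf2, the receptor Fgfr2 was at 8.81 and 2.45 CPM (-1.51) and the feedback inhibitor Spry2 at 85.8 and 36.4 CPM (-1.21). Igfbp5, an IGF-binding protein, was higher, at 16.9 and 48.6 CPM (1.47), as was Igfbp2, at 14.9 and 37.3 CPM (1.27). The higher level of Igfbp2 lay in cluster 9, which held 71.1% of its YSGf UMIs, and without that cluster its log2 ratio was -0.26.

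Some developmental transcription factor genes that are not typical of granule cells were high in SGf and low in YSGf. Shox2, a homeobox gene, had 769 and 4 UMIs, 129-fold lower (50.2 to 475). Runx1, a factor of blood development, was at 36.2 and 5.69 CPM (-2.47), and Cbfb, its binding partner, at 95.8 and 65.4 CPM (-0.54). Shox2 and Runx1 were lower in YSGm than in SGm as well, with -2.60 for Shox2 and -2.47 for Runx1. Runx1 was the 1 called of 4 measured genes of its family and cofactor, whose median was -0.16.

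Genes of neural stem cells and glial progenitors were lower, together with a smaller number of astroglia-like cells. Of 20 measured stem genes, 10 were called lower and 1 higher (Id1, 1.01), with a median of -0.88. Fabp7, a fatty acid-binding protein of radial glia, was at 128 and 21.8 CPM (-2.50), and at 56.8 and 13.4 CPM in the granule lineage alone (-2.01). Sox2, a stem cell factor, was at 67.2 and 24.1 CPM (-1.44), Ptprz1, a receptor phosphatase of glial progenitors, at 38.5 and 10.3 CPM (-1.81), and the intermediate filament gene Vim at 508 and 232 CPM (-1.13). In the shared clusters the median of the list was -0.28, Sox2 had -0.50 and Id3, called lower over all cells (-1.11), had 1.19. Of 13 measured astroglia markers 6 were called lower and 0 higher, with a median of -0.96, but of -0.33 in the granule lineage alone. Summed over these 13 genes the level was 814 CPM in SGf and 543 CPM in YSGf. Aqp4, the water channel of astrocytes, was at 17.2 and 1.97 CPM, with 87.3% of its SGf UMIs in the astroglia-like cluster, and had a log2 ratio of -0.55 in the granule lineage. In the granule lineage, which leaves out the astroglia-like cluster, 9 of 19 measured stem genes were called lower and 1 higher, with a median of -0.80. Of all measured genes there, 2.32% were called lower and 3.17% higher. The part of astroglial RNA in the other stem gene differences was not tested. Gfap, the classical astrocyte filament gene, was not lower, at 10.8 and 18.2 CPM (0.70).

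Of 13 measured Notch pathway genes, 3 were called lower and 0 higher, beside 2.45% lower and 3.11% higher of all genes, with a median of 0.01. The receptors Notch1 (16.2 and 6.35 CPM, -1.23) and Notch2 (17.8 and 8.39 CPM, -1.0) and the target Hes1 (32.0 and 12.1 CPM, -1.33) were the called genes. The ligand Jag1 had -0.87, the DNA-binding factor Rbpj 0.01 and the inhibitor Numbl 0.66.

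In the hedgehog pathway, Gli1 and Gli3 were lower while Smo was within 2-fold. Of 19 measured genes, 3 were called lower (Gli1, Gli3 and the target Igf2) and 1 higher, with a median of -0.14. Gli1, both effector and target, was at 45.0 and 17.9 CPM (-1.29), and Gli3, a mainly repressive factor, at 35.2 and 10.8 CPM (-1.61). The receptor and target gene Ptch1 was at 381 and 191 CPM (-0.99), just inside the threshold, and the decoy receptor Hhip at 63.9 and 36.0 CPM (-0.81). Mycn, an oncogene induced by the pathway, was higher without being called, at 31.0 and 48.1 CPM (0.62), and the cyclin gene Ccnd2 was at 705 and 1002 CPM (0.51). Sfrp1, which binds Wnt ligands, was called higher at 232 and 497 CPM (1.09). In the shared clusters Gli1 had -0.17 and Ptch1 -0.32, while Gli3 kept -1.66. EYFP, a fluorescent protein listed among the features, was at 42.7 and 28.5 CPM in SGf and YSGf (-0.57) and at 35.2 and 50.6 CPM in SGm and YSGm (0.51).

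Few cell division genes were past 2-fold, but few of all measured genes were either (5.56%). All 28 genes of the G2 and M phases were below 0, with a median of -0.47, and Plk1, a mitotic kinase, was the 1 called (29.5 and 14.1 CPM, -1.01). Prc1, of the central spindle, was at 344 and 209 CPM (-0.72), the topoisomerase gene Top2a at 532 and 358 CPM (-0.57), and the proliferation marker Mki67 at 486 and 347 CPM (-0.49). In the shared clusters the median was -0.34, in the m libraries -0.17, and without cluster 9 it was -0.30, with 0 genes called. None of 36 DNA replication genes was called. Of these 29 were below 0 and 7 above, with a median of -0.18, or -0.08 without cluster 9. Among 23 genes of G1 control only Cdkn2a, which encodes the inhibitors p16 and p19, was called: it was higher, at 2.11 and 7.01 CPM (1.37), and also in the m libraries (1.39). Cyclin D3 (Ccnd3) was at 42.2 and 21.7 CPM (-0.93) and cyclin E1 (Ccne1) at 12.9 and 6.86 CPM (-0.82). Of 25 genes of the Myc network and ribosome biogenesis none was called (median -0.22), with Myc at 60.1 and 37.1 CPM (-0.68).

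**Figure D2:**
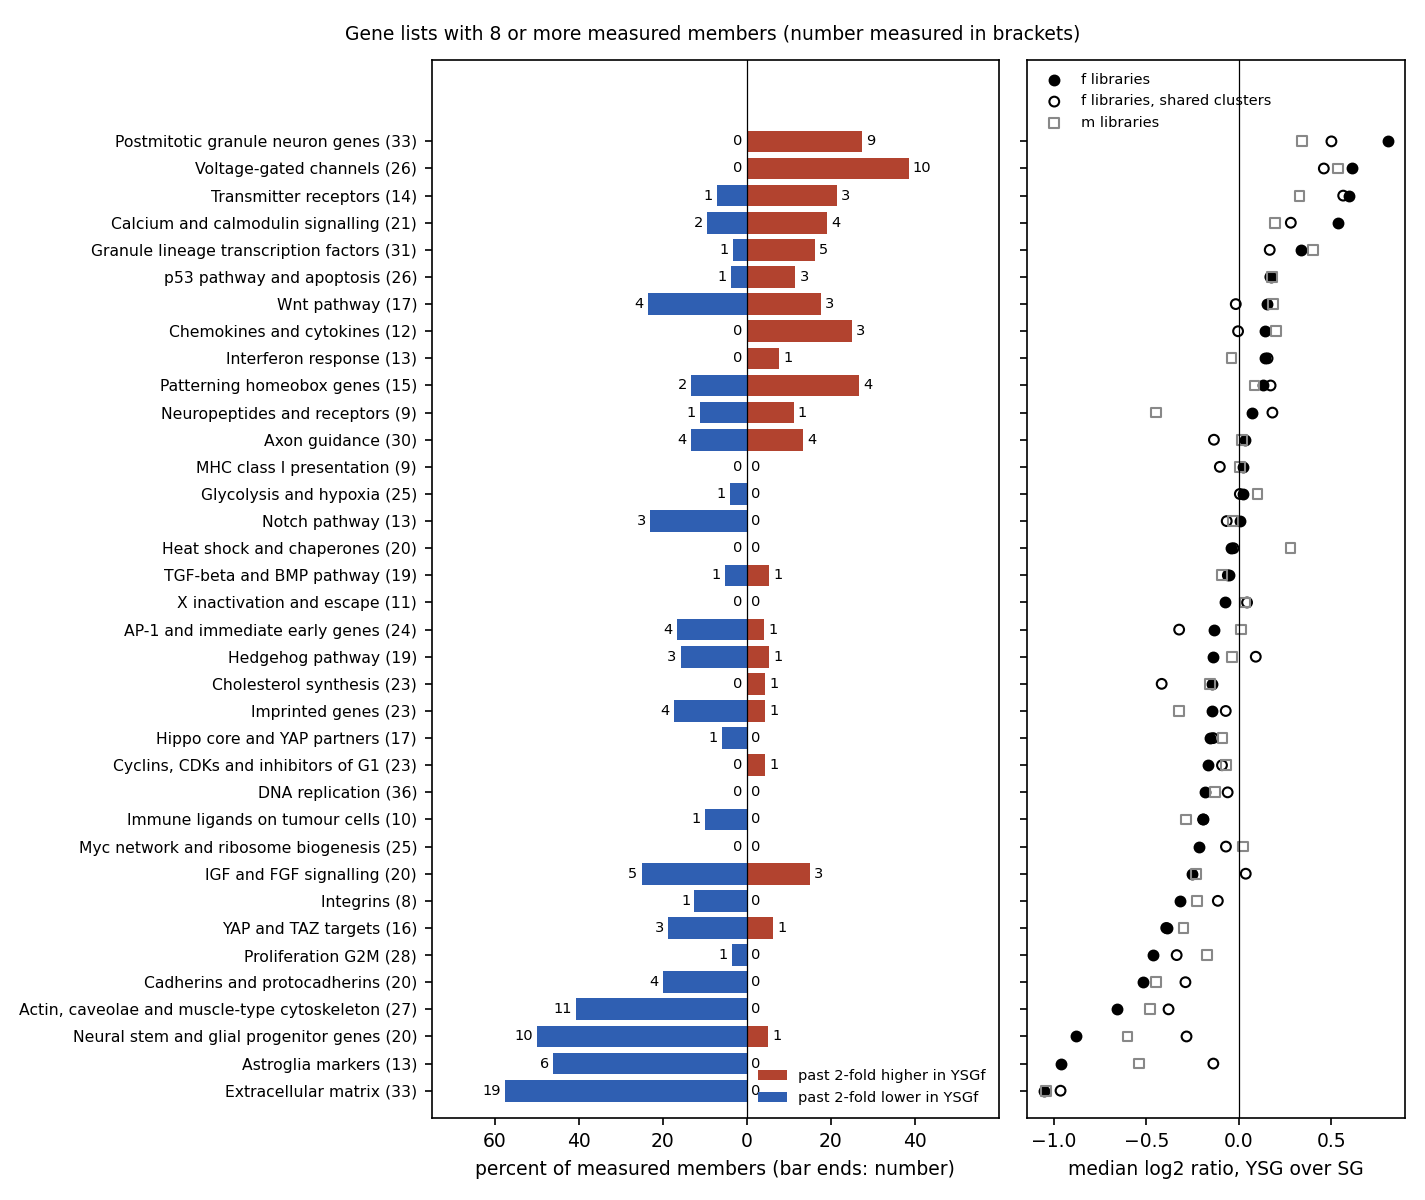
Left, percent of the measured members of each gene list past 2-fold higher (red) or lower (blue) in YSGf than in SGf, with the number at the end of each bar. Right, median log2 ratio of the measured members in the f libraries (filled circles), in the shared clusters of the f libraries (open circles) and in the m libraries (squares); matrix genes have -1.06, -0.97 and -1.04, and postmitotic neuron genes 0.81, 0.50 and 0.34.

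Genes of neuronal maturation were higher in YSGf. Of 33 measured postmitotic granule neuron genes, 9 were called higher and 0 lower, and 30 were above 0, with a median of 0.81. Myt1l, a neuronal transcription factor, was at 14.9 and 110 CPM, 7.33-fold higher (6.90 to 7.79). Calb2, the calcium buffer calretinin, was at 1.38 and 10.4 CPM (2.26), and the adhesion molecule gene L1cam at 7.07 and 28.9 CPM (1.89). The growth cone genes Stmn2 and Gap43 were the most abundant called higher genes, at 260 and 750 CPM (1.53) and at 233 and 592 CPM (1.34). Unc5c, a netrin receptor, was at 12 and 36.1 CPM (1.52). Robo3, a guidance receptor of migrating granule cells, was not called (16.1 and 11.6 CPM, -0.44), and was much lower in the m libraries (-2.57). In the shared clusters the list's median was 0.50, with Stmn2 at 0.81 and Myt1l at 2.09.

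Ion channel genes were higher as well. Of 26 measured voltage-gated channel genes, 10 were called higher and 0 lower, with a median of 0.61. The potassium channel gene Kcna1 was at 2.58 and 24.6 CPM, 9.53-fold higher (8.27 to 11), whereas the m libraries had 2.58 and 5.54 CPM (0.87). Cacna1e, an R-type calcium channel, was at 4.40 and 36.4 CPM (2.79), and the inward rectifier gene Kcnj6 at 9.35 and 48.6 CPM (2.26). Kcnk1, a leak channel, was at 36.6 and 146 CPM (1.97). Of 14 measured transmitter receptors, 3 were called higher and 1 lower, with a median of 0.60. Grin2a, an NMDA receptor subunit, was at 3.0 and 11.1 CPM (1.59). The GABA-B subunit gene Gabbr2 was lower, at 5.89 and 2.40 CPM (-1.02).

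Calcium signalling genes showed large differences in both directions. Of 21 measured, 4 were called higher and 2 lower, with a median of 0.54. Camk4, a calcium-dependent kinase, was at 3.42 and 20.8 CPM (2.30), and Caln1, a calcium-binding protein, at 2.98 and 18.7 CPM (2.31). Hpca, the calcium sensor hippocalcin, was lower, at 181 and 35.3 CPM (-2.33), and Pvalb, the buffer parvalbumin, at 108 and 24.9 CPM (-2.07). Both lower genes were lower in the shared clusters too, with -2.49 and -2.43. Among 9 measured neuropeptide genes, the galanin receptor gene Galr1 was higher, at 3.32 and 23.6 CPM (2.51), and Npy, neuropeptide Y, lower, at 10.1 and 3.41 CPM (-1.33).

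Among lineage transcription factors, Neurod1, Neurod2 and Neurod6 were higher. Of 31 measured, 5 were called higher and 1 lower, with a median of 0.34. The progenitor factor gene Atoh1, given above, was within 2-fold. Neurod1 (152 and 375 CPM, 1.30), Neurod6 (28.7 and 78.7 CPM, 1.43) and Neurod2 (4.88 and 14.9 CPM, 1.43) led the list. Id2 and Id1, inhibitors of such factors, were called higher too (both 1.01), and Id3 was the 1 called lower. The lower call of Id3 was not seen in the granule lineage alone, where its log2 ratio was 0.45. Of 15 measured patterning homeobox genes, 4 were called higher and 2 lower, with a median of 0.13. Without cluster 9, 2 of 14 were called higher and 2 lower, with a median of -0.02. Otx1, a gene of brain patterning, was at 10.2 and 72.2 CPM, 7.05-fold higher (6.55 to 7.58), and Tlx3, of glutamatergic neurons, at 35.9 and 115 CPM (1.66). Isl1, a LIM homeobox gene outside that list, was at 0.933 and 13.4 CPM (2.90). Pou3f2, a POU factor, was lower, at 182 and 85.1 CPM (-1.09). After thinning, 2.17% of SGf and 13.0% of YSGf lineage cells had an Otx1 UMI, against 9.49% and 38.1% without thinning, and 0% and 7.02% in the background cells after thinning.

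Axon guidance and cadherin genes divided. Of 30 measured guidance genes, 4 were called each way, with a median of 0.03. The lower ones included Sema3c, a secreted semaphorin (21.8 and 2.50 CPM, -2.70), and Rgma, a repulsive guidance molecule (89.6 and 31.4 CPM, -1.48). The higher ones included Unc5b (1.77 and 6.59 CPM, 1.45) and Ephb2, an ephrin receptor (43.1 and 95.3 CPM, 1.13). Of 20 measured cadherins and protocadherins, 4 were called lower and 0 higher, with a median of -0.52: Pcdh9 (-1.35), Pcdh7 (-1.31), Pcdh17 (-1.19) and Cdh11 (-1.09). Cdh2, the main neural cadherin, was at 157 and 179 CPM (0.19).

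Wnt and BMP genes were called in both directions. Of 17 measured Wnt genes, 3 were called higher and 4 lower, beside 3.11% and 2.45% of all measured genes, with a median of 0.15. The ligands Wnt3 (2.71 and 11.9 CPM, 1.80) and Wnt4 (38.5 and 87.2 CPM, 1.16) were higher, and Wnt5a was lower (6.51 and 2.45 CPM, -1.12). The receptor gene Fzd1 was at 105 and 36.3 CPM (-1.51), and the nuclear factors Tcf7l2 and Tcf7l1 had -1.39 and -1.19. Of 19 measured TGF-beta and BMP genes, 1 was called each way, with a median of -0.06. Inhba, a subunit of activin, was at 7.87 and 0.549 CPM (-2.52), and the ligand gene Bmp5 at 2.22 and 10.9 CPM (1.88). Smad1 (-0.06) and Bmpr2 (0.03) were level.

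The highest gene in YSGf was Mndal, a member of the interferon-inducible p200 family of nucleic acid sensors and regulators. It had 3 UMIs in SGf and 5406 in YSGf (0.0346 and 92.7 CPM), a log2 ratio of 6.50 and a raw ratio of 2683 (918 to 13013). Its YSGf UMIs were spread over 2937 cells, with at most 17 in 1 cell. After thinning, 0% of SGf and 15.9% of YSGf lineage cells had a Mndal UMI, against 0.0420% and 42.8% without thinning, and 0% and 5.26% of the background cells after thinning. A count of 0 allows up to 0.0430% of the 6971 SGf lineage cells and 5.36% of the 56 SGf background cells. Ifi203, its neighbour in the family on chromosome 1, had 6 and 641 UMIs (0.0691 and 11 CPM, 3.49). The annotated spans of these neighbours lie within 500 kilobases of each other, and reads that fit near-identical family members are uncertain. These were the only measured genes of 13 in the family, and Ifi203 was the only measured gene within 500 kilobases of Mndal. In the m libraries Mndal went from 0.109 to 47.1 CPM and Ifi203 from 0.178 to 3.15 CPM.

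The other interferon response genes did not follow Mndal. Of 13 measured, Ifi27 was called higher (2.93 and 9.30 CPM, 1.39) and none lower, with a median of 0.14. The signal transducers Stat2 (0.39) and Stat3 (-0.54) were within 2-fold, as was the chemokine gene Cxcl10 (6.01 and 7.80 CPM, 0.33). None of 9 measured genes of MHC class I presentation was called, beside 5.56% of all genes, with H2-D1 at 43.0 and 57.4 CPM (0.41) and a median of 0.02. Of 10 measured ligands by which tumour cells meet immune cells, Lgals1, a galectin, was called lower (147 and 56.0 CPM, -1.38). Cd47, the signal that restrains phagocytosis, was at 53.5 and 93.7 CPM (0.80) and was level in the m libraries (0.01). Cd200, an inhibitory ligand, was at 5.67 and 9.06 CPM (0.59).

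The called chemokine genes were higher in YSGf through few cells. Of 12 measured chemokines and cytokines, 3 were called higher and 0 lower: Ccl4 (80 and 877 UMIs), Ccl5 (6 and 390) and Ccl3 (16 and 293 UMIs), with a list median of 0.14. The microglia and macrophage-like cluster, with 9 SGf and 44 YSGf cells, held 99.2%, 97.7% and 99% of the YSGf UMIs of these genes in that order. In YSGf 10 cells carried 99% of the Ccl4 UMIs. In the granule lineage the log2 ratios were 0.12 for Ccl4, 0.15 for Ccl5 and 0.06 for Ccl3, with 7, 7 and 3 lineage cells of YSGf carrying a UMI. Of 30 leukocyte markers, the 2 that were measured, Lyz2 (1.11 and 8.99 CPM) and Coro1a (4.78 and 11.8 CPM), were called higher. Their summed level was 5.89 CPM in SGf and 20.8 CPM in YSGf. Coro1a was called higher in the granule lineage alone too, with a log2 ratio of 1.07 against 1.14 over all cells. The pan-leukocyte gene Ptprc had 10 and 83 UMIs and the T cell gene Cd3e 0 and 4. Ctss, a protease of antigen presentation and the 1 measured gene of MHC class II presentation, was at 0.760 and 5.57 CPM (1.90). Lcn2, the iron-trapping protein lipocalin 2, had 3 and 619 UMIs. The astroglia-like cluster held 94.0% of those in YSGf, and 10 cells carried 96.9% of them. The growth factor gene Csf1 (-0.40) and the cytokine genes Mif (0.18) and Il1b (0.78) were not called.

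Ren1, which encodes the protease renin, ranked second to Mndal by the log2 ratio with 1 CPM added; scarcer genes such as Lcn2 and Ifi203 had larger raw ratios. It had 269 UMIs in SGf and 7029 in YSGf (3.10 and 121 CPM), 38.9-fold higher (34.4 to 44.1). Cluster 9 held 58.2% of its YSGf UMIs, and without that cluster the log2 ratio was 3.85, against 4.89 with it. After thinning, 0.602% of SGf and 11.8% of YSGf lineage cells had a Ren1 UMI, against 2.60% and 19.3% without, and 3.51% of the YSGf background cells. In the m libraries Ren1 was at 2.82 and 0.279 CPM (-1.58). Of the 7 measured genes within 500 kilobases of Ren1, Etnk2 was called higher and none lower, with a median of 0.16.

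Stress and damage genes were called both ways. Of 26 measured genes of the p53 pathway and apoptosis, 3 were called higher and 1 lower, beside 5.56% called either way of all genes, with a median of 0.17. The BH3-only genes Pmaip1 (3.72 and 9.91 CPM, 1.21) and Bbc3 (25.7 and 53.6 CPM, 1.03) and the growth arrest gene Gadd45a (53.2 and 112 CPM, 1.05) were higher. Eda2r, a death receptor, was lower, at 49.8 and 19.5 CPM (-1.31), but had 0.38 in the shared clusters. Bbc3 had 0.72 there. Of the 26 genes measured in the shared clusters 0 were called, beside 4.1% of all genes. The m libraries also had 0 of 26 called, beside 3.93% of all genes. Trp53 itself had -0.50 and Cdkn1a, the inhibitor p21, -0.34. Of 24 immediate early genes, which also respond to dissociation, 4 were called lower, namely Fosl1 (82.0 and 24.1 CPM, -1.72), Arc (-1.70), Egr3 (-1.11) and Egr1 (518 and 245 CPM, -1.07). Nr4a3 was called higher (1.22), the list's median was -0.13, and Fos was level at 98.4 and 108 CPM. None of 20 heat shock genes was called in the f libraries, beside 5.56% of all genes, with a median of -0.04. The m libraries had 4 called higher, beside 1.56% of all genes there, and a median of 0.28.

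Of 25 measured glycolysis and hypoxia genes, 1 was called lower, beside 2.45% of all genes, with a median of 0.02. It was the astroglial aldolase gene Aldoc (13.9 and 5.42 CPM, -1.22). None of 11 genes of X inactivation and escape was called, beside 5.56% of all genes. Of 5 measured oligodendrocyte lineage genes, Mbp (17.3 and 47.5 CPM, 1.40) and Pdgfra (27.3 and 76.4 CPM, 1.45) were called higher. In the granule lineage alone their log2 ratios were 1.59 and 1.54. The fold of the oligodendrocyte-like share was 0.822 (0.542 to 1.24). Which cells account for the higher levels was not tested. Of 2 measured endothelial and mural markers, Col3a1 was called lower, and the endothelial gene Cldn5 had -0.33.

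The m libraries, YSGm and SGm, repeat the genotype comparison in other animals with no library in common. Of their 10180 measured genes, 159 were past 2-fold higher (1.56%) and 241 past 2-fold lower (2.37%) in YSGm, together 3.93%. Over the 10091 genes measured in both, 275 were higher in YSGf and 152 in YSGm, and 111 were higher in both, which is 40.4% of the first and 73.0% of the second. Of lower genes there were 235 and 236, with 159 in both (67.7% and 67.4%). Pdlim3 (-5.49), Igf2bp1 (-4.14), Cavin1 (-3.07), Otx1 (2.34) and Myt1l (2.19) had log2 ratios in the m libraries within 1 of those in the f libraries, whereas Mndal had 5.44 against 6.50. The f libraries stood above the m libraries by 1 or more on the log2 scale for 75 genes and below by as much for 40. No test of these differences is possible with 1 library in each group.

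**Figure D3:**
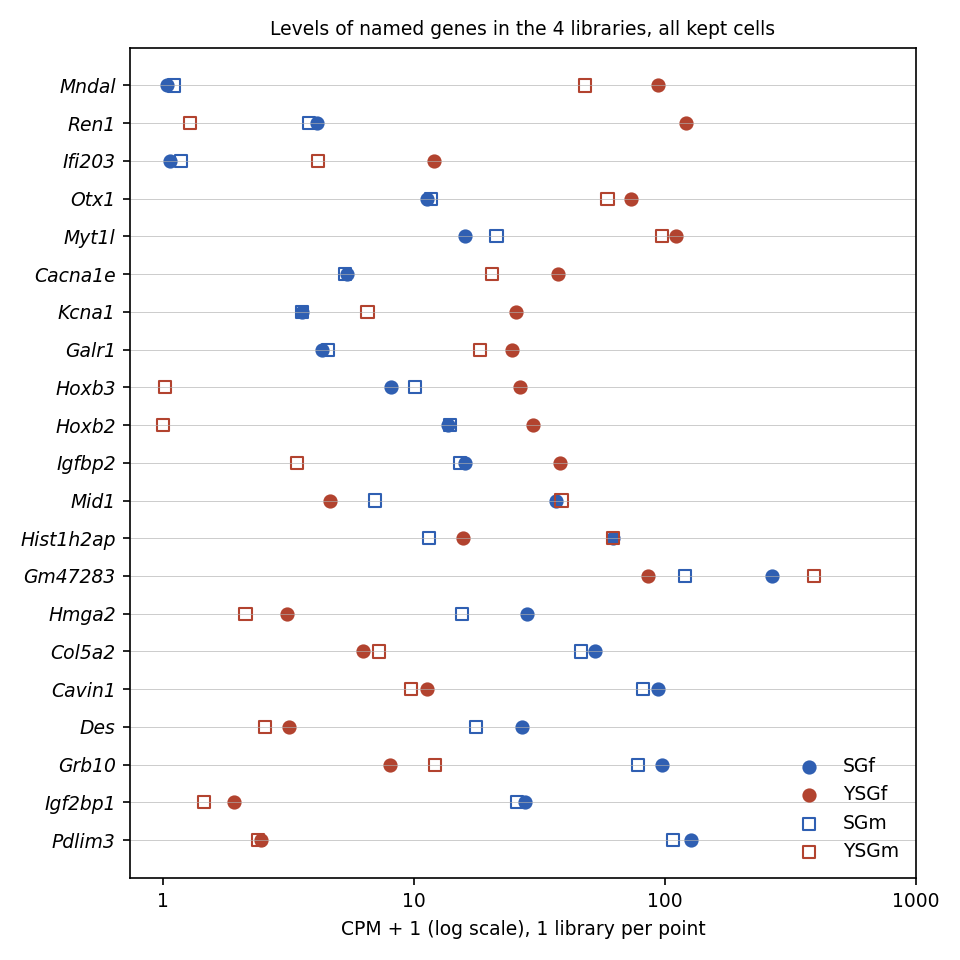
Levels of named genes in the SGf (blue circles), YSGf (red circles), SGm (open blue squares) and YSGm (open red squares) libraries, as CPM + 1 on a log scale, 1 library per point. For Pdlim3 both SG libraries are above both YSG libraries, and for Mndal and Otx1 below them, whereas Mid1, Hist1h2ap and Gm47283 are high in SGf and YSGm and low in YSGf and SGm.

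Several genes that were high in YSGf were not so in YSGm. Hoxb3 (chr11:96323326-96347930, plus strand), a hindbrain patterning gene, was at 7.11 and 25.5 CPM in SGf and YSGf, 3.58-fold higher (3.26 to 3.94), and at 9.08 and 0.0164 CPM in SGm and YSGm. Its neighbour Hoxb2 (chr11:96350525-96354012, plus strand) was at 12.7 and 28.9 CPM in the f libraries and had 945 UMIs in SGm and 0 in YSGm. Cluster 9 held 65.8% of the YSGf UMIs of Hoxb3 and 59.7% of those of Hoxb2, and without it their log2 ratios were 0.45 and 0.07 in place of 1.71 and 1.12. A like shift held for Crabp1, a retinoic acid-binding protein gene, with 81.0% of its YSGf UMIs in cluster 9 and -0.60 without it in place of 1.34. Rcan2, a calcineurin regulator, had 61.2% there and 0.07 in place of 1.17. Of the 4 libraries, YSGm was the lowest for each of these genes. Hoxb2 and Hoxb3 also led the finer cluster of mostly SGf and SGm cells given above.

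In the opposite direction, Mid1 (chrX:169685199-170005736, plus strand), a microtubule-associated ubiquitin ligase gene that spans the boundary of the pseudoautosomal region in laboratory mice, was at 35.7 and 3.62 CPM in SGf and YSGf, 9.87-fold lower (8.58 to 11.4). In SGm and YSGm it was at 5.99 and 37.8 CPM, 6.31-fold higher (5.69 to 7.0). Gm47283, which GENCODE M21 places on chromosome Y, had 23139 and 4950 UMIs in the female libraries, or 267 and 84.9 CPM, and 119 and 394 CPM in SGm and YSGm. Its reads in females cannot come from a Y chromosome, so its assignment is uncertain. Hist1h2ap, a replication-dependent histone gene with near-identical copies, was at 61.0 and 14.7 CPM in the f libraries and at 10.5 and 61.3 CPM in the m libraries. Gm10076 was at 95.4 and 43.2 CPM and at 36.4 and 119 CPM. AA465934, a non-coding RNA gene, was lower in both sexes but by different amounts, at 34.3 and 1.29 CPM in the f libraries (-3.95) and at 39.3 and 15.5 CPM in the m libraries (-1.28).

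**Figure D4:**
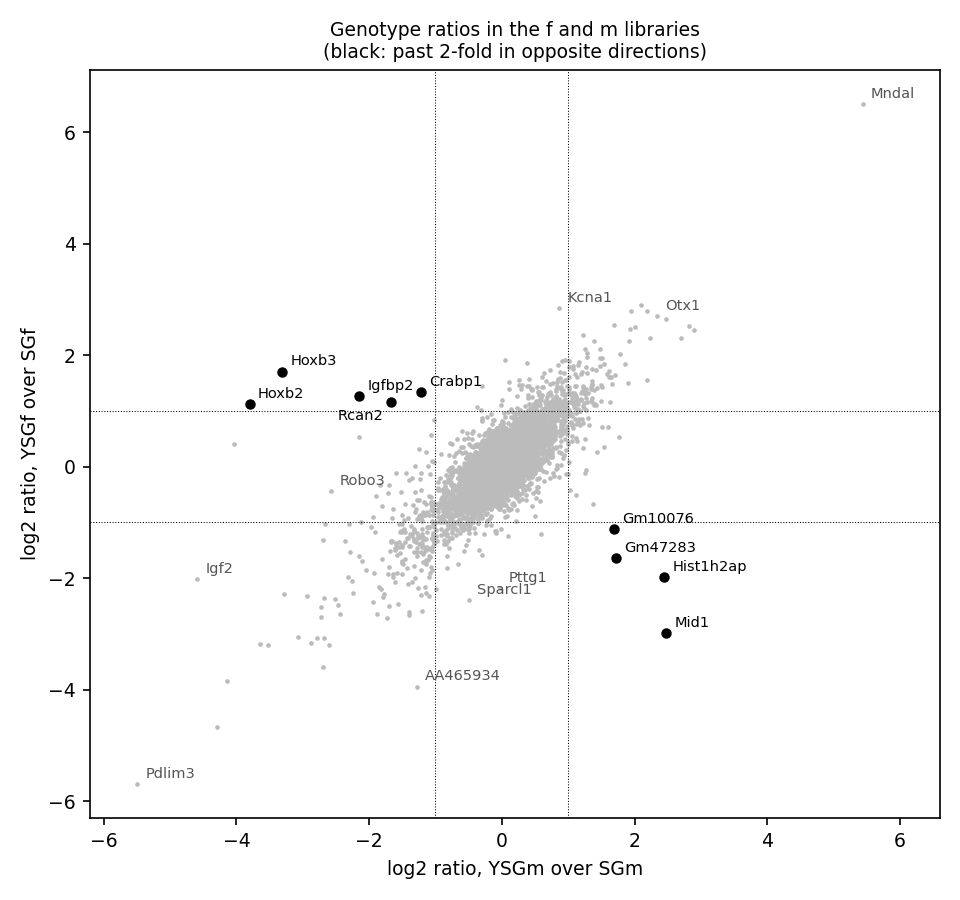
Log2 ratio of YSG over SG in the m libraries (x axis) and the f libraries (y axis), 1 point per gene measured in both, with dotted lines at 2-fold. The 9 black points, from Mid1 at -2.99 and 2.47 (f and m) to Hoxb3 at 1.71 and -3.31, are past 2-fold in opposite directions.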

How the data were processed

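The authors deposited, for each of 4 libraries, a filtered matrix of UMI counts per gene and barcode made with Cell Ranger 5.0.1, per the file headers; the build was mm10, per the submitters' processing notes. Counts of kept barcodes were summed per library and scaled to CPM of all 32286 features, 32235 of which matched GENCODE M21. Log2 ratios used a pseudocount of 1 CPM, a minimum of 5 CPM in at least 1 library and a threshold of 2-fold. Folds of UMIs have exact conditional binomial intervals and shares of cells Clopper-Pearson intervals (95%). With 1 library per group no test was made. Depth was 86810253 UMIs in SGf, 58308739 in YSGf, 73147047 in SGm and 60884286 in YSGm, so a gene with under 3 UMIs in a library is at the floor.

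The 4 libraries were clustered together with scanpy 1.11.5 and leidenalg 0.10.2 (Python 3.11.15) on 10000 counts per cell, 2000 variable genes, 30 components, 15 neighbours and resolution 1, giving 17 clusters. Classes outside the granule lineage needed a mean log2 marker ratio of at least 2 and at least 3 markers detected in over 10% of cells. Any other cluster took the better-scoring granule class if at least 3 of its markers were detected. Detection did not set these clusters apart: 17 granule markers were detected in the astroglia-like cluster and 18 in the oligodendrocyte-like cluster. The granule lineage is therefore a class by default. The scoring rule was chosen with the clusters in view. Scrublet's own threshold marked 0% of cells, so it did not work here and no doublets were removed; leaving out the highest scores (4.92% of SGf, 5.06% of YSGf) was an alternative. The script was tested on simulated counts.

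The members and gene lists were chosen with earlier results of these data known. Genes named are the 20 highest and 20 lowest log2 ratios, Yap1 with its partners, Smo and EYFP, up to 6 members of each list with the largest ratios and the 2 most abundant, the 10 genes each way that differ most between the f and m libraries, and the 10 most abundant genes past 2-fold each way. Named outside this rule, after their values were seen, were Ankrd1, Atoh1, Birc2, Ccn2, Cd3e, Cep126, Etnk2, Fos, Gfap, Helt, Meg3, Ncan, Ptprc, Sorbs2, Spry2, Timp2, Tnr, Tpm1 and Trp53. Alternatives changed the cell filter, doublets, scaling, weighting of cells, pseudocount, minimum, clustering and cells used. Some genes and results are not reported here.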

Additional observations from a re-analysis of the deposited data

Results flagged for a closer look

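For 9 genes the f and m libraries differed in the direction of the YSG over SG ratio, past 2-fold each way. With 1 library per group the difference was not tested. The f minus m difference of the log2 ratios was -5.46 for Mid1, -4.43 for Hist1h2ap, -3.36 for Gm47283 and -2.81 for Gm10076, which were lower in YSGf than in SGf and higher in YSGm than in SGm. It was 2.55 for Crabp1, 2.83 for Rcan2, 3.42 for Igfbp2, 4.92 for Hoxb2 and 5.02 for Hoxb3, which were higher in YSGf and lower in YSGm. Of the YSGf UMIs of these last 5 genes, between 59.7% (Hoxb2) and 81.0% (Crabp1) lay in cluster 9, which holds 745 YSGf cells and 16 cells of the other libraries.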

How the results depend on the processing

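No paired analysis was possible because the comparison of YSGf with SGf has 1 library on each side; a fit over all 4 libraries was not run. The count of genes past 2-fold higher fell from 323 to 156 with a pseudocount of 5 CPM and to 167 with a minimum of 20 CPM, and that of lower genes from 254 to 142 and 136; the added pseudocount shrinks ratios and the minimum leaves fewer genes. Both counts stayed within 1.5 times under the other settings run. The log2 ratios of all 326 named genes kept their values within the counting interval under median-of-ratios scaling, without mitochondrial and ribosomal genes in the total, and under the stricter cell filter, and 317 did with the highest doublet scores left out. Beyond that interval moved 31 genes in granule-lineage cells, 61 and 164 with a pseudocount of 0.1 and 5 CPM, 111 with each cell weighted equally, 110 without cluster 9 and 259 in the shared clusters, besides the reversals given here. In granule-lineage cells Id3 turned to 0.45. The settings that kept the shared clusters only, or left out cluster 9, were chosen after seeing the data. In the shared clusters the YSGf over SGf fold of Yap1 was 0.0403, on few UMIs, and the log2 ratios turned to -0.013 for Ccl4, -0.0076 for Ccl5 and Lcn2, -0.079 for Crabp1, -0.58 for Ctss, 0.38 for Eda2r, 1.19 for Id3, -0.26 for Lyz2, -0.18 for Rcan2 and 0.15 for Tagln. Without cluster 9 Crabp1 had -0.60 and Igfbp2 -0.26. The fold of the astroglia-like share was 0.0898 under the stricter filter and 0.181 with the f libraries clustered alone; the cause was not tested.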
